A study of Mus musculus with 4 samples.

Results

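The neutrophil granule genes examined here are 10 genes that encode proteins stored in, or released with, the granules of neutrophils: Camp, Ngp, S100a8, S100a9, Ltf, Lcn2, Chil3, Mpo, Elane and Retnlg. They were found by matching the transcript accession of each array probe to a gene symbol, and all 10 were matched, by 11 of the 56605 probes on the array. In all, 23462 gene symbols were matched. RNA from whole livers of male mice, killed after a fast, was hybridised to 4 arrays, 1 per group, with no replicate. One group was natural aging mice given no drug, and the others were diabetic: aging diabetic mice left untreated, those treated with metformin, the oral glucose-lowering drug, and those treated with metformin plus astragalus polysaccharide (APS), carbohydrate from Astragalus root. The labels give no strain, age, dose or way of inducing diabetes, do not say whether an RNA came from 1 mouse or several, and do not explain the 60 d in the sample titles. With 1 array per group there is no test, and each difference below is one between 2 arrays.

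Neutrophils carry several kinds of granule. Azurophil granules form first in the bone marrow and hold myeloperoxidase and serine proteases, specific granules follow with lactoferrin and cathelicidin, and the calcium-binding S100 proteins lie mainly in the cytosol. The genes are transcribed largely while the cells mature in the marrow, so that in liver their RNA is usually taken as a sign of blood or resident neutrophils. Some of the proteins have other sources: hepatocytes make lipocalin 2 in the acute-phase response, and some macrophages make the chitinase-like protein Chil3.

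Values are log2 of the spot signal minus the log2 of that array's 75th percentile, so that 0 is the 75th percentile, and each error is the one the image analysis gave for the spot, which leaves out the spread between animals. Each array had 59305 spots that were not controls, of which 33668 to 37402 were well above background. The 8 hepatocyte markers with a usable probe were well above background on all 4 arrays and within 2-fold between any pair of them. All 11 probes of the granule genes were well above background in natural aging and in aging diabetic, 9 with metformin and 8 with APS plus metformin. Unless another order is given, runs of 4 values follow that order of groups. A difference of 1 on the log2 scale (2-fold) was counted. Where a probe passed the background criterion on 1 array of a pair only, a bound is given ("at least"): the dimmer array then enters at its lowest passing signal, or at the probe's own signal if that is higher. In whole tissue, fewer neutrophils and less RNA per neutrophil cannot be told apart.

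C/EBP and PU.1 are transcription factors of the granulocyte lineage that are known to act on granule gene promoters. All 10 genes have a promoter in the RefSeq set (mouse build GRCm38.p6), and the 250 bases before the start were searched on both strands for TTGCNNAA as a C/EBP motif and for GAGGAAGT as a PU.1 motif. The C/EBP letters were found in 5 of the 10 (Lcn2, Ltf, Ngp, Retnlg and S100a9), beside 9.56% of 32851 mouse promoter windows of that length. The PU.1 letters were found in 3 (Elane, Mpo and S100a8), beside 2.44%, and none of the 10 windows held both. The NF-kB motif was in none of the 10 and in 0.356% of all windows, which says only that its letters are not in these windows. The 4 windows below are shown because Ngp, Ltf and Elane were not well above background on the APS plus metformin array while Lcn2, with the same C/EBP letters, stayed bright on every array. Capitals mark the matches, and positions count back from the base before the start, which is -1.
Ngp, chr9:110419558-110419807, plus strand, matches at -138 and -11
Ngp: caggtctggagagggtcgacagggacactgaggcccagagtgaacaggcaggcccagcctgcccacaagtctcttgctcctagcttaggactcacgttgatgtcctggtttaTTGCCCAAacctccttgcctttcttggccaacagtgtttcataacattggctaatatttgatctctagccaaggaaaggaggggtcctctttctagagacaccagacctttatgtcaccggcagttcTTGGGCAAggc
Ltf, chr9:111019042-111019291, plus strand, match at -75
Ltf: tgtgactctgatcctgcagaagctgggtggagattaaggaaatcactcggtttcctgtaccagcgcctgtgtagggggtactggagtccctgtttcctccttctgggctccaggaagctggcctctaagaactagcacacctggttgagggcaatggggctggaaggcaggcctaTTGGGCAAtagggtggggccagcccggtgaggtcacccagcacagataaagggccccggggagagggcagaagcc
Lcn2, chr2:32387740-32387989, minus strand, match at -216
Lcn2: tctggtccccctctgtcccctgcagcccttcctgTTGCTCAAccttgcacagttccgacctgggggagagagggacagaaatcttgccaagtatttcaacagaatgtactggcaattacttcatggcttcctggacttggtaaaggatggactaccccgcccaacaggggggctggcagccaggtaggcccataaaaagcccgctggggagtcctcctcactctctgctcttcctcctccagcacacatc
Elane, chr10:79886062-79886311, plus strand, PU.1 match at -85
Elane: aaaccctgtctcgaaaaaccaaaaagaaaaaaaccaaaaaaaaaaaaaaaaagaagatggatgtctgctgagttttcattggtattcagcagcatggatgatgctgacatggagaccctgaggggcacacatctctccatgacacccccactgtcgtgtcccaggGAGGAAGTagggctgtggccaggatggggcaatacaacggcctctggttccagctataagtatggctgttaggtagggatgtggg

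Camp and Ngp, the cathelicidin-type genes, both stood highest on the natural aging array, and Camp stood lowest on the APS plus metformin array. Camp encodes the precursor of CRAMP, the only cathelicidin of the mouse. Camp (probe A_55_P2039699) stood at -1.70 ± 0.12 in natural aging, -2.07 ± 0.13 in aging diabetic, -2.99 ± 0.14 with metformin and -4.47 ± 0.26 with APS plus metformin. Each value lies below the one before it. On the APS plus metformin array Camp was 5.26-fold lower than on the aging diabetic array (log2 -2.40, error 0.29) and 2.78-fold lower than on the metformin array. The metformin array lay below the aging diabetic one by less than 2-fold (log2 -0.92, or -1.03 after quantile normalization). Ngp, which encodes neutrophilic granule protein, a cystatin-like relative of the cathelicidins, stood at -3.11 ± 0.17 and -4.08 ± 0.25, then at -5.75 and -7.05, which were not well above background and have no order. Ngp was at least 3.59-fold lower on the metformin array and at least 3.32-fold lower on the APS plus metformin array than on the natural aging array. Against the aging diabetic array its bounds were under 2-fold, at -0.87 and -0.76, and in each of these comparisons 3 of 8 alternatives put it past 2-fold.

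**Figure D1:**
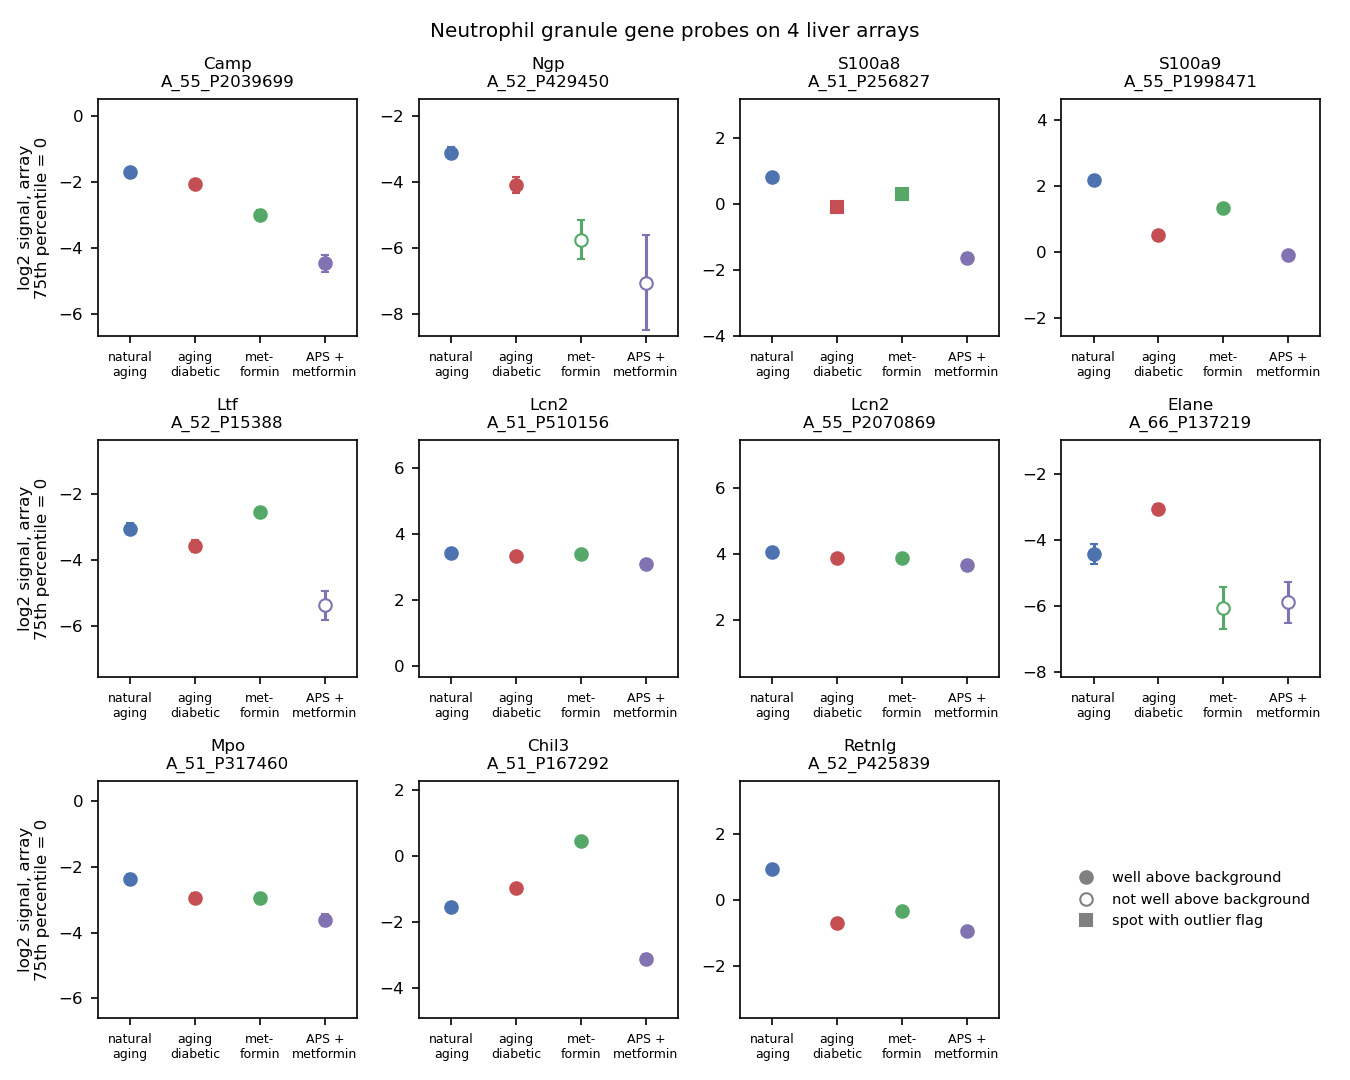
Log2 signal of each probe of the 10 genes on the 4 arrays, with the array's 75th percentile at 0 and the image-analysis error as bars; every panel spans the same number of log2 units, open circles are spots not well above background and squares are spots with an outlier flag. The APS plus metformin value is the lowest in every panel but those of Ngp and Elane, where it and the metformin value are not well above background and have no order, and both Lcn2 panels are nearly level.

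S100a8 and S100a9, which encode the subunits of calprotectin and are next to each other on chromosome 3, had the order natural aging, metformin, aging diabetic, APS plus metformin. S100a9 (probe A_55_P1998471) stood at 2.18 ± 0.12, 0.51 ± 0.12, 1.31 ± 0.12 and -0.12 ± 0.12 on the natural aging, aging diabetic, metformin and APS plus metformin arrays. The aging diabetic array was 3.18-fold lower than natural aging (log2 -1.67, error 0.16). APS plus metformin was 2.68-fold lower than metformin and 4.91-fold lower than natural aging, and differed from aging diabetic by -0.62. S100a8 (probe A_51_P256827) stood at 0.81, -0.08, 0.31 and -1.63 in the same order of arrays. Its spots on the aging diabetic and metformin arrays carried a flag for uneven pixels, so S100a8 is left out of the counts. The unflagged pair put APS plus metformin 5.41-fold below natural aging (log2 -2.44, error 0.17), and with the flagged spots APS plus metformin was 2.92-fold below aging diabetic and 3.83-fold below metformin.

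Ltf and Lcn2 encode proteins that withhold iron from bacteria, and they did not vary alike. Lactoferrin, encoded by Ltf, binds iron itself. Ltf (probe A_52_P15388) stood at -3.06 ± 0.16 in natural aging, -3.59 ± 0.17 in aging diabetic and -2.56 ± 0.13 with metformin, and was not well above background on the APS plus metformin array (-5.38). There it was at least 2.37-fold lower than on the aging diabetic, at least 4.85-fold lower than on the metformin and at least 3.43-fold lower than on the natural aging array. The metformin array was 2.04-fold higher than the aging diabetic array (log2 1.03, error 0.22), a call that 4 of 9 alternatives did not give, with values down to 0.66. Lcn2 encodes lipocalin 2, which binds bacterial siderophores. Its probe A_55_P2070869 stood at 4.06, 3.87, 3.89 and 3.66 and its probe A_51_P510156 at 3.42, 3.33, 3.38 and 3.07, each with an error of 0.12. Both probes were lowest on the APS plus metformin array, and the whole range was 0.40 for the first probe. For comparison, the median range over the 12689 genes detected on all 4 arrays was 0.67. Acute-phase genes, which hepatocytes express, are given beside Lcn2. Of 14 acute-phase genes compared, none was lower and 1, Hamp, was higher at 2-fold on the APS plus metformin array than on the aging diabetic array. The median of the 14 was -0.01 in that comparison, where Lcn2 stood at -0.21. On APS plus metformin against natural aging the median was -0.46, and Lcn2 stood at -0.40. There 2 of the 14 were lower (Saa2 and Fga), beside 6.68% of all genes, and 1 was higher (Hamp), beside 6.14%. Saa1, serum amyloid A, stood at 4.32, 3.95, 3.85 and 3.39, passed 2-fold in no comparison and does not stand for the list.

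Elane and Mpo, the azurophil granule genes, differed from each other in order. Neutrophil elastase is a serine protease that degrades matrix and bacterial proteins. Elane (probe A_66_P137219) stood at -4.44 ± 0.30 on the natural aging array and -3.07 ± 0.15 on the aging diabetic array, and at -6.08 and -5.90 on the metformin and APS plus metformin arrays, where it was not well above background. Among the 9 genes with unflagged spots on all arrays it was the only one highest on the aging diabetic array. There it was 2.58-fold higher than on the natural aging array (log2 1.37, error 0.33; 0.72 after normexp background correction), at least 3.69-fold higher than on the metformin array and at least 3.42-fold higher than on the APS plus metformin array. The Elane signal on the natural aging array, 124.7, was close to that array's lowest passing signal of 117.9, which limits the 2.58-fold difference. Mpo encodes myeloperoxidase, which makes hypochlorous acid from hydrogen peroxide. Mpo (probe A_51_P317460) stood at -2.38 ± 0.14, -2.97 ± 0.15, -2.96 ± 0.14 and -3.63 ± 0.18. The aging diabetic and metformin arrays differed by 0.01 with an error of 0.20, and only APS plus metformin against natural aging passed 2-fold, at 2.38-fold lower (log2 -1.25, error 0.22; -0.99 after normexp correction).

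Chil3 and Retnlg encode secreted proteins. Chil3, a chitinase-like lectin also called Ym1, is made by neutrophils and by some macrophages. Chil3 (probe A_51_P167292) stood at -1.53 ± 0.12, -0.97 ± 0.12, 0.48 ± 0.12 and -3.11 ± 0.15, highest with metformin and lowest with APS plus metformin. The metformin array was thus 2.72-fold above the aging diabetic array (log2 1.45, error 0.17), and the APS plus metformin array was 4.40-fold below it and 12.0-fold below the metformin array (log2 -3.58, error 0.19). That last difference is the largest measured on both sides among the 10 genes in these comparisons. Retnlg, which encodes resistin-like gamma, a small secreted protein of bone marrow and neutrophils, stood at 0.96, -0.68, -0.34 and -0.92 with errors of 0.12 (probe A_52_P425839). All 3 diabetic arrays were over 2-fold below natural aging, by 3.12-fold, 2.46-fold and 3.68-fold, and they lay within 0.58 of each other.

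By comparison, the count of granule genes past 2-fold ran from 3 of 9 to 7 of 9. The 6 comparisons share arrays, so their values are not independent of each other. In aging diabetic against natural aging, 2 of the 9 genes compared were lower at 2-fold (Retnlg and S100a9), beside 6.09% of all 14453 genes, and 1 was higher (Elane), beside 8.2% (14.3% in either direction). Their median was -0.53, against -0.05 over all genes. In metformin against aging diabetic, 2 of 9 were higher (Chil3 and Ltf), beside 11.9% of all genes, and 1 was lower (Elane), beside 3.53% (15.4% in either direction). The median was 0.02 against -0.01 over all genes, and 3 of the 9 lay below 0.

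In APS plus metformin against aging diabetic, 4 of 9 were lower (Camp, Chil3, Elane and Ltf), beside 6.9% of all genes, and none was higher, beside 4.38% (11.3% in either direction). The other 5 also had values or bounds under 0, and the median was -0.76 against 0.02. That median is the bound of Ngp, which was dim on the APS plus metformin array. Over the 9 alternatives it ran from -1.785 to -0.643. Elane and Ltf are bounds, and requiring both arrays to pass the background criterion left 2, Camp and Chil3. In APS plus metformin against metformin, 4 of the 7 genes compared were lower (Camp, Chil3, Ltf and S100a9), beside 12.4%, and none was higher, beside 2.37% (14.8% in either direction). Ltf is again a bound, and a gene dim on the first array alone can only be called lower. Elane and Ngp were dim on both arrays and give no fold there. The median was -1.42 against -0.03 over all genes.

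**Figure D2:**
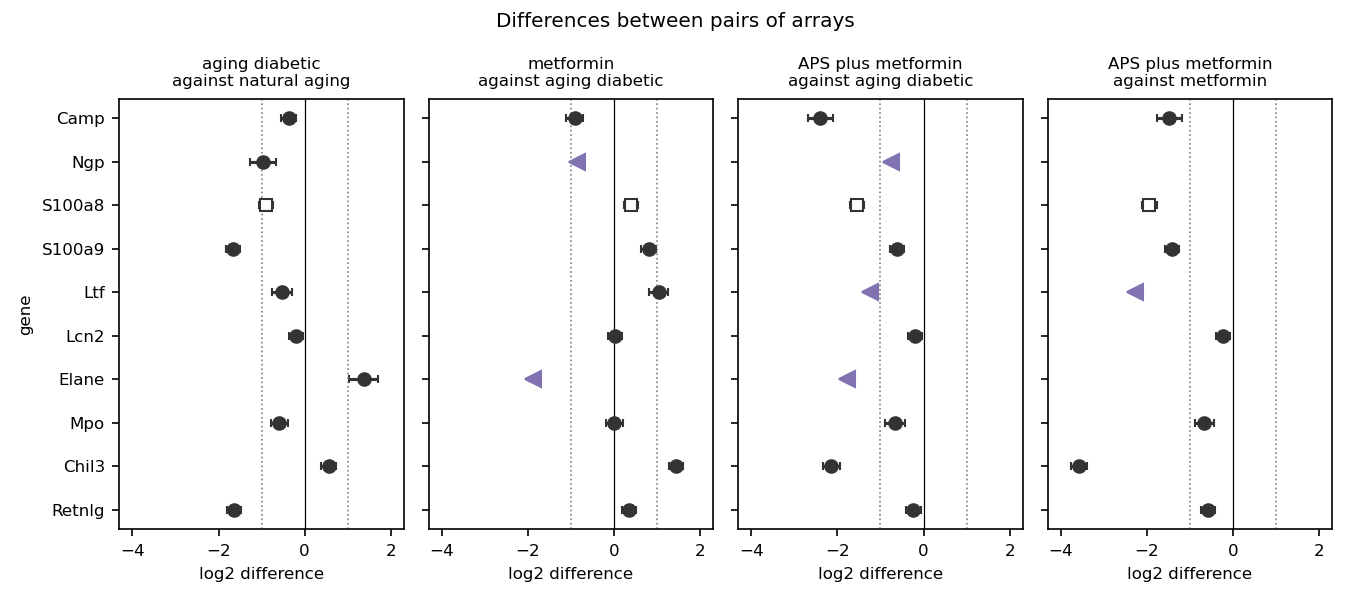
Log2 difference of each gene in 4 comparisons, first array minus second, with the combined image-analysis error as bars; dotted lines mark 2-fold, triangles are bounds, open squares rest on a flagged spot, and a gene without a symbol was dim on both arrays. In both comparisons of APS plus metformin every symbol lies left of 0, from near 0 for Lcn2 to -3.58 for Chil3.

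Against natural aging, the metformin array had 3 of 9 genes lower (Camp, Ngp and Retnlg), beside 4.71% of all 15548 genes, and 1 higher (Chil3), beside 13% (17.7% were past 2-fold in either direction). The APS plus metformin array had 7 of 9 lower, beside 6.68% of all 14634 genes, and none higher, beside 6.14% (12.8% in either direction). Among the 7, Ltf and Ngp are bounds, while Camp, Chil3, Mpo, Retnlg and S100a9 were measured on both arrays. Ngp is also a bound on the metformin array. A gene dim on the treated array alone can only be called lower. The 2 that were not counted were Lcn2 at -0.40 and Elane at a bound of -0.41. The medians were -0.58 and -1.73, against -0.02 and -0.05 over all genes. The value of -1.73 is the bound of Ngp, and this median ran from -1.879 to -1.468 over the 9 alternatives. Of the 9 genes, 6 had their highest value on the natural aging array. In the 7 that were dim on at most 1 array, the lowest value was on APS plus metformin. Ngp and Elane were dim on 2 arrays each and have no lowest. The shares of all genes with these highest and lowest arrays were not counted, so these counts cannot be weighed. Lcn2 and Retnlg differed there from the next array, aging diabetic, by only -0.21 (error 0.16) and -0.24 (error 0.17).

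The genes nearest in pattern were sought among 12683 others detected on all 4 arrays, by the root-mean-square difference from the mean centred profile of the 6 granule genes so detected (Camp, S100a9, Lcn2, Chil3, Mpo and Retnlg). That mean profile was 0.68, 0.03, 0.31 and -1.02. The nearest gene was Lilra5, a leukocyte immunoglobulin-like receptor, at 0.08 log2, followed by H1f4, a linker histone, at 0.10, by Ctse, cathepsin E, and 2810459M11Rik at 0.11 each, and by Atp11a at 0.12. Taken gene by gene, S100a9 was nearest to Klre1, a receptor of natural killer cells (0.05), then Dio3os and Tff2. Chil3 was nearest to Pdlim4 (0.20), then Ube2c and Lockd, and Retnlg to Chka (0.04), then Frmd6 and Reg3d. Camp was nearest to 2810408I11Rik (0.08), then 1700028E10Rik and Zfp9. Mpo was nearest to Olfr1260 (0.04), then Alcam and Plekhj1, and Lcn2, itself almost level, to Glmp, Hdhd5 and Srp19 (each within 0.020). With 4 arrays, such likeness is a description of these values only.

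For the gene lists that follow, the shares of all genes past 2-fold in each comparison are those given above. Among 25 other granule genes, 22 had a usable probe, and they did not all follow the same order. Prtn3, proteinase 3 of azurophil granules, stood at -0.72, -1.68, -0.77 and -5.20, the last not well above background, and was at least 8.97-fold lower on APS plus metformin than on aging diabetic and at least 16.9-fold lower than on metformin. Ctsg, cathepsin G, and Mmp8, the collagenase of neutrophils, passed the background criterion only in natural aging and with metformin. Stefin genes, which encode cysteine protease inhibitors abundant in granulocytes, went another way. Stfa3 stood at -6.75 in natural aging, where it was dim, then at -3.58, -1.62 and -2.78, and was 3.90-fold higher on metformin than on aging diabetic. Stfa1 and Stfa2 were also dim on the natural aging array and brightest on the metformin array. The stefins are near-identical copies, and their probes may not tell them apart. By count, 7 of 17 of these other granule genes were lower on APS plus metformin than on metformin and none higher. Against aging diabetic 2 of 14 were lower, 1 was higher and the median was 0.11, which turned to -0.03 without a filter on dim probes. Hp and Wfdc21 are in these counts, but their probes stood at 3.577 or more on every array, and Hp is also among the acute-phase genes. How far the list reports neutrophils alone was not tested. Fcnb, Itgb2l, Bpi and Ms4a3 were not well above background on any array.

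Among receptors of mature neutrophils, the metformin array lay above aging diabetic and APS plus metformin lay below metformin. On metformin 6 of 19 were higher than on aging diabetic, beside 11.9% of all genes, and none lower, with a median of 0.72. On APS plus metformin 9 of 19 were lower than on metformin, beside 12.4%, with a median of -0.96. Against aging diabetic 2 of 18 were lower (Cxcr1 and Ltb4r1), near the 6.9% over all genes, with a median of -0.05. Csf3r, Trem1 and Itgam are in these counts, but their probes stood at 3.47 or more on every array, and whether they report these genes alone was not tested. Without these 3 the medians were 0.89, -1.09 and -0.25, with the same counts of 6, 9 and 2. Cxcr2, the receptor that draws neutrophils to chemokines, was not well above background on the aging diabetic array. Of 16 attractants and growth signals, 8 were compared between aging diabetic and natural aging, and 4 were lower and 1 higher. Cxcl1, a chemokine that draws neutrophils, stood 9.52-fold lower on the diabetic array, while Ccl3 stood 3.88-fold higher. On metformin 4 of 11 were higher than on aging diabetic and none lower, among them Cxcl5 and Cxcl2 with bounds of at least 3.19-fold and 2.14-fold. On APS plus metformin against aging diabetic 3 of 8 were higher (Il1a, Il1b and Ppbp) and 2 were lower (Ccl3 and Ccl4). The median of those 8 was 0.16, or -0.05 with all probes of a gene averaged. Csf3, the growth factor of granulocytes, and Il17a were not well above background on any array. Of 8 genes of the NADPH oxidase and related killing functions, 4 of 7 compared were higher on metformin than on aging diabetic, among them Cybb at 2.55-fold, and none differed by 2-fold between APS plus metformin and aging diabetic. These genes are shared with monocytes and macrophages.

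**Figure D3:**
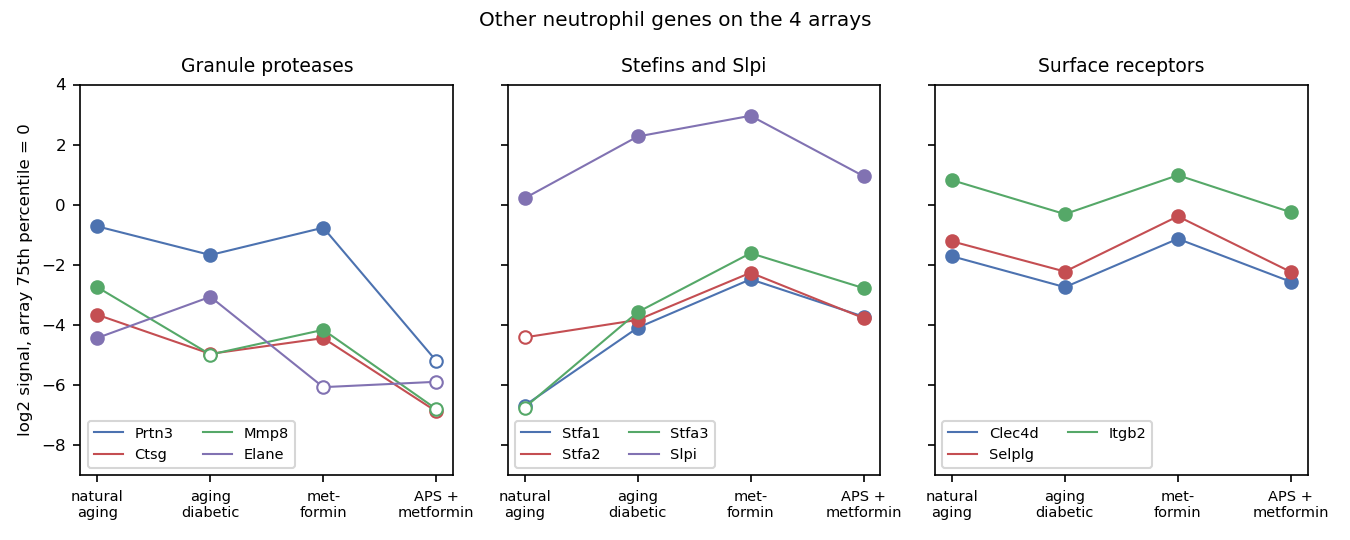
Log2 signal of granule proteases, of stefins with the protease inhibitor Slpi, and of surface receptors on the 4 arrays, with the array's 75th percentile at 0; open circles are values not well above background, and lines join values of 1 gene and carry no order in time. The proteases are lowest or dim on APS plus metformin, the stefins are dim on natural aging, and the 3 receptors shown are higher on natural aging and metformin than on the other 2 arrays, a pattern that others of the list, such as Cxcr1 and Ltb4r1, do not have; levels are to be read within a gene, not between genes.

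Markers of other cell types also differed between these arrays. T and NK cell markers had a median of 2.04 on metformin against aging diabetic, with 7 of 11 higher, and of -1.71 on APS plus metformin against metformin, with 8 of 11 lower. On APS plus metformin against aging diabetic their median was 0.53, with 3 of 11 higher and none lower, where the granule genes had 4 of 9 lower. Of 10 monocyte markers compared, 3 were higher on metformin than on aging diabetic and none lower, among them Ccr2 (6.32-fold) and Cx3cr1 (12.3-fold). The median of the 10 was 0.25, or -0.06 without a filter on dim probes. F10, Fn1 and Ms4a4c are among the 10, but their probes stood at 3.408 or more on every array. Whether these probes report monocytes was not tested. Pancreatic acinar markers had the order natural aging, metformin, aging diabetic, APS plus metformin, which is also that of S100a9 and Retnlg. Their summed scaled signal over 11 genes was 83.1, 21.0, 10.99 and 5.41 on those arrays, and 11, 11, 11 and 6 of the 11 were well above background. Kupffer cell markers summed over 11 genes to 67.8, 61.1, 46.0 and 40.1 in that order of arrays, all 11 well above background on each. The brightest genes carry such a sum, and on metformin against aging diabetic 1 of the 11 was higher and 2 were lower (Marco and Cd163). Erythroid markers, a sign of blood, had a median of -0.98 on aging diabetic against natural aging, with 5 of 12 lower, and of 0.37 on APS plus metformin against aging diabetic, with 1 of 9 higher. The part of these cell types in the values of the granule genes was not tested.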

How the data were processed

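The authors hybridised Cy5-labelled liver cRNA to 1-colour Agilent arrays, all on 1 slide per the file headers. Per the file headers, the deposited spot intensity was background-subtracted and detrended within each array by Agilent Feature Extraction 11.5.1.1; the labels give version 10.7, per the submitters' processing notes. Other deposited columns used are the error of that intensity and flags of 0 or 1, which per the file headers mark spots well above background or outliers. The deposited series table holds log2 values normalized in GeneSpring, per the labels' protocols, by a method not given in the sources used here. No spot was saturated. The number of arrays, 4, limits the precision.

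Signals were divided by each array's 75th percentile (2699.5 to 3589.0) and log2 was taken (Python 3.11.15 with pandas 2.3.3; limma 3.58.1 in R 4.3.3 for alternatives). Outlier spots were left out, which left 51780 probes. Probes were named through RefSeq transcripts (33767 of 56605), and the probe of highest mean signal stood for a gene. No test was run. The array design is annotated on mm9, so no array coordinates are printed. Every matched probe of the 10 genes is named, and of the other lists a gene may be named if it passed 2-fold in any comparison. Which of those to name was chosen after their values were seen. So were the exceptions: Saa1, genes with bright probes named as a limit of their list, and genes not well above background. Likeness names the 5 nearest genes, and the 3 nearest to each gene. The genes and lists were chosen with earlier results of these data known. The calling step was checked on simulated data, with changes placed only in bright probes. That check did not cover changes in dim probes, bounds for them or the spread between animals.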

Additional observations from a re-analysis of the deposited data

How the results depend on the processing

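The granule genes' differences and counts, the counts over all genes and the list medians were recomputed under 9 alternatives (8 where requiring both arrays above background leaves no value); single genes of other lists and the likeness ranks were not. The alternatives were quantile normalization, cyclic loess, the 75th percentile of probes above background on all arrays, normexp, the authors' series table, outlier spots kept, probes averaged, and stricter or no filters on dim probes. Normexp was run on the median signal in place of the planned mean signal, and the receptor list without 3 bright probes was added, both after seeing the data. Of 25 member differences past 2-fold, 22 stayed past it wherever they could be recomputed, 3 did not (Elane, Ltf and Mpo, given above), and none of the 25 changed sign. Another 5 passed 2-fold only under some alternative: Camp and Ngp in metformin against aging diabetic, Ngp between APS plus metformin and aging diabetic, and Elane in both treated groups against natural aging. For Ngp with APS plus metformin against aging diabetic, the bound of -0.76 became a difference of -2.97 when dim spots were taken at their own signal. Of the 6 unflagged granule genes well above background on both arrays, 2 were counted in that comparison, against 4 of 9 before. Over all genes, the lower calls there went from 1017 to 826 under that filter. Without a filter, the genes past 2-fold over the whole array numbered 3495, 4698 and 3298 for aging diabetic, metformin and APS plus metformin, each set against natural aging. Set against aging diabetic they numbered 3895 with metformin and 2643 with APS plus metformin, and for APS plus metformin set against metformin they numbered 3792. The 75th percentile of probes above background moved the median of all genes in metformin against natural aging from -0.02 to 0.17, and the share of higher calls from 73.4% to 83.5%. The causes were not tested. No paired analysis was possible because each group has 1 array. Signals near the floor, between 113.7 and 118.8, limit Ngp, Elane and Ltf. Camp passed the background criterion on the APS plus metformin array, but its signal there, 153.8, was also not far above the floor.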

Other observations

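Of 24 family relatives of the granule genes compared between metformin and aging diabetic, 8 were higher on metformin and none was lower. S100a4, a calcium-binding protein of motile cells, stood at -0.64 in natural aging, -1.68 in aging diabetic, 1.27 with metformin and -1.68 with APS plus metformin, and was 7.72-fold higher on metformin than on aging diabetic. S100a11 was 4.18-fold and S100a6 2.04-fold higher in that comparison. Chil4, the closest relative of Chil3, was 2.14-fold higher on metformin than on aging diabetic. It was at least 4.73-fold lower on APS plus metformin than on metformin, the same directions as Chil3. Whether the probes of Chil3 and Chil4 tell these 2 genes apart was not tested. Retnla, a relative of Retnlg made by alternatively activated macrophages, passed the background criterion only in natural aging and with metformin.

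Of 12 inhibitors of granule enzymes, 10 were compared, and 2 were higher on aging diabetic than on natural aging and none lower. On APS plus metformin against aging diabetic 1 was higher (Serpinb1a) and 1 lower (Slpi), with a median of 0.03. Slpi, an inhibitor of elastase and cathepsin G, stood at 0.22, 2.27, 2.96 and 0.95 in the same order of groups. Serpinb1a, an intracellular inhibitor of elastase and proteinase 3, was 2.67-fold higher on aging diabetic than on natural aging. Set against aging diabetic, it was 2.33-fold higher again on metformin and 2.45-fold higher on APS plus metformin. The 2 treated arrays differed by a log2 of 0.07.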
